A study of Mus musculus with 10 samples.

Results

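Lipocalin 2 (Lcn2) and 9 further genes of the acute-phase response, Saa3, Hp, Serpina3n, Ptx3, Cp, Orm1, Slpi, S100a8 and S100a9, were followed in cultured mouse aortic smooth muscle cells. The set was a list of 10 gene identifiers, all of which were among the 16860 genes of the deposited table. The gene names are those given with that list, since the table holds identifiers only and the RefSeq table used here pairs 0 of its genes with Ensembl identifiers. The members were chosen by name as acute-phase genes with the measured difference between cholesterol-loaded and baseline cells already known, so differences from baseline are given below as a description, without p-values.

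Cells were primary aortic smooth muscle cells from C57BL/6 mice aged 8 weeks, passaged at most 5 times and grown in medium with 10% fetal bovine serum. HDL cells received cholesterol at 10 µg/mL with methyl-β-cyclodextrin, a carrier sugar, at 6 moles per mole of cholesterol for 72 h, and for 72 h more the high-density lipoprotein (HDL) from humans at a concentration of 100 µg/mL. Cholesterol cells received the same loading for 72 h and were then harvested. Baseline cells were harvested with no stimulus. Each group had 2 Affymetrix Mouse Genome 430 2.0 arrays, numbered 1 and 2, and the labels do not tie them to separate cultures, isolates or mice. All values are log2 values after Robust Multichip Average (RMA), a background correction and normalization that brings the arrays to one distribution, from the run that held all 3 groups. No group with the carrier alone, with the same time in culture but no cholesterol, or with loading and then 72 h without HDL was analysed here. Cholesterol, carrier, time in culture and origin of the cells therefore cannot be told apart in any comparison with baseline, nor can HDL and the later harvest in the comparison with cholesterol.

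The acute-phase response is the change in secreted proteins that follows infection or injury. Cytokines such as interleukin-6 and interleukin-1 drive it through the transcription factors STAT3, NF-κB and the C/EBP family. The liver is its main source, but several of its proteins are also made by other cells under inflammatory stimuli. Lcn2 binds the siderophores with which bacteria take up iron, Hp (haptoglobin) captures free haemoglobin, and Cp (ceruloplasmin) is a copper-carrying ferroxidase. Saa3 is a serum amyloid A protein of the mouse that is made largely outside the liver, and Orm1 (alpha-1-acid glycoprotein) is a plasma carrier of small molecules. Ptx3 (pentraxin 3) is a secreted pattern recognition protein. Serpina3n and Slpi are inhibitors of serine proteases. S100a8 and S100a9 are calcium-binding proteins that pair with each other and are abundant in neutrophils.

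Windows of 250 bases directly upstream of an annotated transcript start were read from RefSeq for 8 of the 10 genes, on GRCm38.p6. Hp and Orm1 had no entry. The windows were searched on both strands for the C/EBP motif TTNNGNAAT, the STAT motif TTCNNNGAA, the TATA box TATAAA and the NF-κB consensus GGGRNNYYCC. In these, N is any base, R is A or G, and Y is C or T. Cp had 2 annotated starts, which makes 9 windows, and its TATA box matched on both strands at overlapping bases; no other matches overlapped. The C/EBP motif was found for 3 of the 8 genes (Slpi, Serpina3n and S100a9), against 10.2% of all 32851 promoter windows of that length. The TATA box was found for 2 (Cp and S100a8), against 12.4% of all windows. For Cp it was in the window that lies wholly inside the RefSeq span of the gene, and the window of its other start had 0 matches. The NF-κB consensus and the STAT motif were found for 0 of the 8 genes, against 7.25% and 7.02% of all windows. The counts of the set are of genes with a match in any of their windows, whereas the shares are of single windows. A match describes letters only. The windows below are those of Lcn2 and Saa3, 2 of the genes with the largest differences from baseline, of the 2 protease inhibitors, and of S100a8 and S100a9. S100a8 and S100a9 are neighbours on chromosome 3. Capitals mark a C/EBP match in Slpi, Serpina3n and S100a9 and the TATA box in S100a8. All are written 5′ to 3′ on the strand of the gene.
Lcn2, chr2:32387740-32387989, minus strand: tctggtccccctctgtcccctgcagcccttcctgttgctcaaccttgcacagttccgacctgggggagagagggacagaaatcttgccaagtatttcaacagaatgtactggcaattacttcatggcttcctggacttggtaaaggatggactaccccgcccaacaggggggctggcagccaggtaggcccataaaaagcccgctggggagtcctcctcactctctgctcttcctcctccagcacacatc
Saa3, chr7:46715677-46715926, minus strand, inside the RefSeq span of the gene, which holds a further upstream start: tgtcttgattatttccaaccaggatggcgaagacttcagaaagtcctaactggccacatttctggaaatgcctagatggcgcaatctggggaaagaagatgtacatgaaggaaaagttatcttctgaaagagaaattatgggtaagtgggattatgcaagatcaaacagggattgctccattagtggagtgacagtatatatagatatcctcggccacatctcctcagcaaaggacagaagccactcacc
Serpina3n, chr12:104406458-104406645, plus strand, the 188 bases of its window that lie before the RefSeq span of the gene: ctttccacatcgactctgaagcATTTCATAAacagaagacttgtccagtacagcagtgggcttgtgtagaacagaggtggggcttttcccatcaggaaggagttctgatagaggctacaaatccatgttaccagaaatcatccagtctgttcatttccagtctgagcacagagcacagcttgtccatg
Slpi, chr2:164356508-164356757, minus strand: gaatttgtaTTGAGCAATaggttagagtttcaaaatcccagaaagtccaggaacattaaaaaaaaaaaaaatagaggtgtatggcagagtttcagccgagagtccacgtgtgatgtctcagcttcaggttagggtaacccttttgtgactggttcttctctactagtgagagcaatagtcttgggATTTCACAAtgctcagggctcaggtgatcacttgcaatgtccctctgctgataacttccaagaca
S100a8, chr3:90668821-90669070, plus strand: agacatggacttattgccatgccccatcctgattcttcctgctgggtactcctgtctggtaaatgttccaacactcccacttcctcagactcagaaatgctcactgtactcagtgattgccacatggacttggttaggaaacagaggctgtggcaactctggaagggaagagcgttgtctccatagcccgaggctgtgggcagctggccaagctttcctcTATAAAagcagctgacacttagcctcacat
S100a9, chr3:90695722-90695971, minus strand: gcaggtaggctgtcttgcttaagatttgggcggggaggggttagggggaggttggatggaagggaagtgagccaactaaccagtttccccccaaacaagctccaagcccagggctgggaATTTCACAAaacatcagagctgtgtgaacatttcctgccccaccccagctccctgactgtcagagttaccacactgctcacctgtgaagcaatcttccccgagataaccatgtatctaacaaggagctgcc

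Of these, Slpi had C/EBP matches 241 to 233 and 65 to 57 bases before its start. Serpina3n had matches 228 to 220 and 57 to 49 bases before its start, the second of them in the part of its window not printed. S100a9 had 1 match, 131 to 123 bases before its start, and the TATA box of S100a8 lay 30 to 25 bases before its start. Slpi and Serpina3n were higher in loaded cells than at baseline, whereas S100a9, with a match of the same letters as one in Slpi, stayed near the low end of every array, as described below. Lcn2 and Saa3 had the 1st and 4th largest difference from baseline of all genes. Neither had a match to any of the 4 motifs in these windows. Only the stated letters were searched. Looser forms of each motif, and bases outside the windows, such as those at the further upstream start of Saa3, were not. Whether the presence or absence of a match bears on the response of a gene was not tested.

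Across the set, loaded cells had higher values than baseline cells for 9 of the 10 genes. The median difference over all 10 genes was 3.60 on the log2 scale, against -0.03 over all genes of the table. In limma, 8 of the 10 genes were called higher after cholesterol than at baseline at a Benjamini-Hochberg adjusted p under 0.05, where 10.4% of all genes were called higher and 23.5% were called in either direction. The one-way test per gene named in the design text was run here on the arrays of the compared groups only. It does not share the spread between genes and has fewer degrees of freedom than the limma fit. That test called 0 of the 10 (7 at an unadjusted p under 0.05). This comparison was known when the list was made, and nothing is read from the count. S100a9 and Orm1 were the genes not called. The labelled cell type was not checked against its markers, because the marker genes could not be matched to the identifiers of the table. In cultures measured in bulk, fewer cells of a type and less RNA per cell cannot be told apart.

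**Figure D1:**
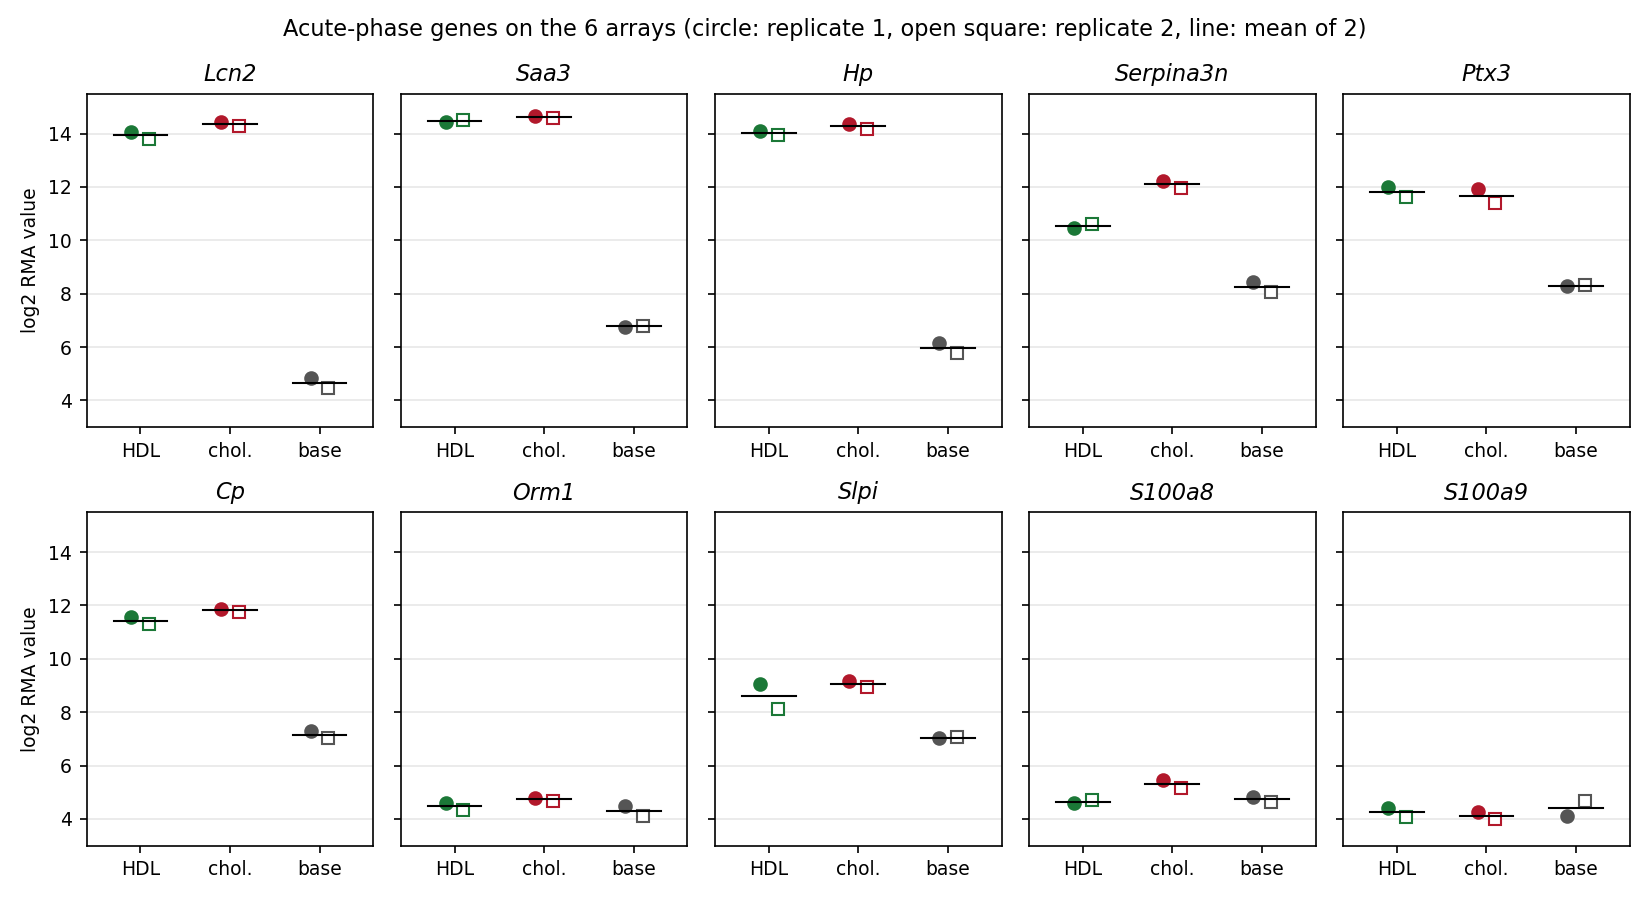
Log2 RMA values (y axis) of the 10 genes on the 2 HDL, 2 cholesterol (chol.) and 2 baseline (base) arrays; filled circles are replicate 1, open squares replicate 2, and lines the mean of 2. Lcn2, Saa3 and Hp lie between 13.81 and 14.65 on the HDL and cholesterol arrays and between 4.46 and 6.80 on the baseline arrays, while Orm1, S100a8 and S100a9 lie below 5.5 throughout.

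Among the genes that bind iron, haemoglobin or copper, Lcn2 (ENSMUSG00000026822_at) had values of 14.42 and 14.28 on the cholesterol arrays, against 4.84 and 4.46 on the baseline arrays. The groups were far apart, and the difference of 9.70 ± 0.15 (SE), about 831-fold on the linear RMA scale, was the largest of all 16860 genes. Lcn2 lay at the 99.9th percentile of the cholesterol arrays and the 19.2nd percentile of the baseline arrays. In the lowest 25% of values, where its baseline level fell, the background step of RMA compresses differences, so the fold and the rank describe RMA values and may understate the difference in RNA. Hp (ENSMUSG00000031722_at) had values of 14.36 and 14.18 on the cholesterol arrays, against 6.14 and 5.77 on the baseline arrays. Its difference of 8.32 ± 0.14 (SE), about 319.7-fold, ranked 3rd among all genes. Cp (ENSMUSG00000003617_at) had values of 11.88 and 11.77 on the cholesterol arrays, against 7.30 and 7.02 on the baseline arrays, a difference of 4.67 ± 0.14 (SE) that ranked 17th. The baseline arrays of Lcn2 and Hp differed from each other by 0.38 and 0.36, more than for 96.3% and 95.8% of genes. Those gaps are small beside the differences between the groups.

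Saa3 (ENSMUSG00000040026_at) had values of 14.65 and 14.59 on the cholesterol arrays, against 6.77 and 6.80 on the baseline arrays. The replicates lay close together in both groups, and the difference of 7.84 ± 0.09 (SE), about 229-fold, ranked 4th among all genes. Saa3, Lcn2 and Hp were all in the top 1% of values on every cholesterol and HDL array, where the highest value of any gene was between 15.01 and 15.09. Whether the scanner signal of such bright genes was near its upper limit was not tested. Orm1 (ENSMUSG00000039196_at) had values of 4.80 and 4.68 on the cholesterol arrays, against 4.50 and 4.11 on the baseline arrays. Those groups did not overlap, but the gap between them was smaller than that between the baseline arrays, and the difference of 0.43 ± 0.15 (SE) was not called. Orm1 lay in the lowest 25% of values on every array, the range in which RMA compresses differences. The difference was 0.25 in the authors' run without the HDL arrays, and 0.24 without baseline replicate 2 to 0.63 without baseline replicate 1. Ptx3 (ENSMUSG00000027832_at) had values of 11.93 and 11.41 on the cholesterol arrays, against 8.29 and 8.33 on the baseline arrays. The cholesterol arrays differed by 0.52, more than for 98.6% of genes, and still lay well above both baseline arrays, with a difference of 3.37 ± 0.19 (SE) that ranked 48th.

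Of the protease inhibitors, Serpina3n (ENSMUSG00000021091_at) had values of 12.23 and 11.96 on the cholesterol arrays, against 8.43 and 8.07 on the baseline arrays. Its difference was 3.84 ± 0.15 (SE), about 14.4-fold, and ranked 30th among all genes. Slpi (ENSMUSG00000017002_at) had values of 9.19 and 8.93 on the cholesterol arrays, against 7.02 and 7.08 on the baseline arrays, a difference of 2.01 ± 0.27 (SE). Its level depended on which arrays were normalized together: the same arrays averaged 8.85 after cholesterol and 6.77 at baseline in the authors' run of those groups alone, against 9.06 and 7.05 in the run of all 3 groups. The difference moved little between the runs, which was 2.08 in the run of those groups alone.

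S100a8 and S100a9 did not show the same pattern in their values. S100a8 (ENSMUSG00000056054_at) had values of 5.47 and 5.16 on the cholesterol arrays, against 4.84 and 4.65 on the baseline arrays, a difference of 0.57 ± 0.13 (SE). The groups did not overlap, but that call was lost without baseline replicate 1, without baseline replicate 2 and without cholesterol replicate 1. S100a9 (ENSMUSG00000056071_at) had values of 4.26 and 3.99 on the cholesterol arrays, against 4.13 and 4.68 on the baseline arrays. The groups overlapped, and the difference was -0.28 ± 0.20 (SE), with the baseline arrays further apart than for 99.3% of genes. Leaving out baseline replicate 1 gave -0.55, and leaving out baseline replicate 2 gave -0.0022. S100a9 was in the lowest 25% of values on all 6 arrays and S100a8 on all HDL and baseline arrays. Whether the responses of S100a8 and S100a9 differ from each other was not tested.

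**Figure D2:**
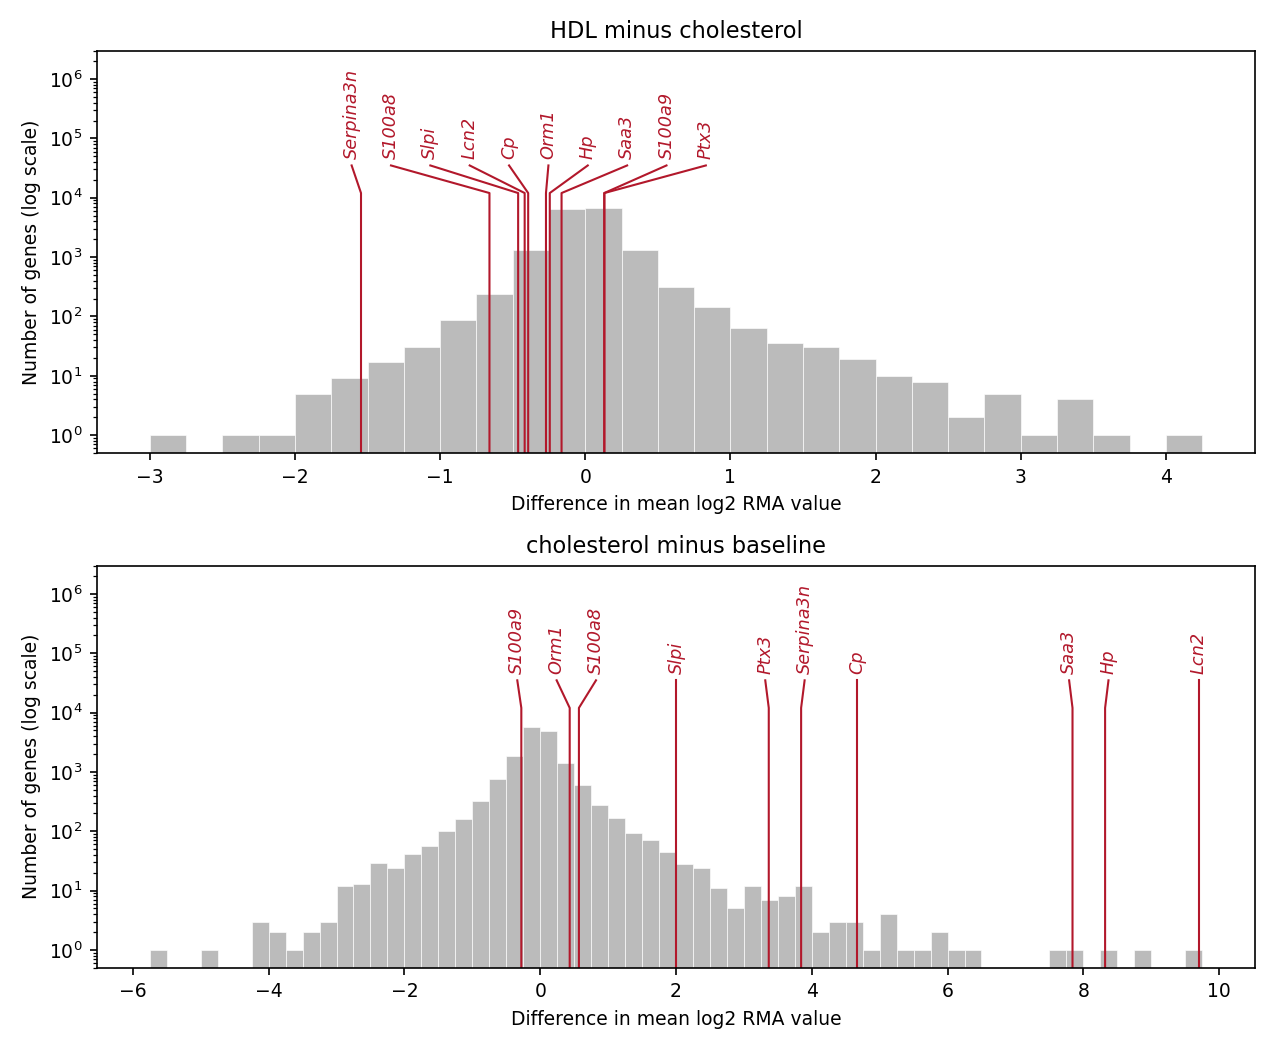
Histograms of the difference in mean log2 RMA value (x axis) of all 16860 genes, with the number of genes on a log scale (y axis) and red lines at the 10 named genes, for HDL minus cholesterol (top) and cholesterol minus baseline (bottom). After cholesterol, Lcn2, Hp and Saa3 lie beyond 7 at the right end; with HDL, Serpina3n at -1.55 lies in the left tail and the other 9 lie between -0.66 and 0.13.

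HDL cells were then compared with cholesterol cells to ask how these genes stood after HDL, an acceptor of cellular cholesterol, had been added. Serpina3n fell, and it was the 1 gene of the 10 that was called, where 2.73% of all genes were called in either direction and 0.949% were called lower. Values were lower after HDL for 8 of the 10 genes, against 49% of all genes, with a median of -0.33 against 0.00 over all genes. The arrays of the groups did not overlap, with HDL lower, for 7 of the 10 genes, where this held for 22.4% of all genes. The comparison uses the same cholesterol arrays as the differences from baseline that were known when the list was made. These counts, and the p-values of single genes given below, are therefore a description and not independent of that choice.

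Serpina3n had values of 10.47 and 10.63 on the HDL arrays, against 12.23 and 11.96 on the cholesterol arrays. Both HDL arrays lay below both cholesterol arrays and above both baseline arrays. The change of -1.55 ± 0.15 (SE; limma adjusted p = 0.00447) was a level 2.92-fold lower on the linear scale, and ranked 14th among the falls of all genes. Leaving out cholesterol replicate 1 ended the call (adjusted p = 0.0527), as did the one-way test per gene (adjusted p = 0.460). Over all alternatives its adjusted p ran from 0.00268 to 0.460 and its change from -1.68 to -1.41. Relative to baseline Serpina3n was still higher by 2.30 ± 0.15 (SE), beside 3.84 ± 0.15 (SE) for cholesterol cells.

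The other protease inhibitor, Slpi, had values of 9.06 and 8.13 on the HDL arrays, against 9.19 and 8.93 on the cholesterol arrays. The HDL arrays differed by 0.93, more than for 98.9% of genes, and only replicate 2 lay below both cholesterol arrays. The change of -0.46 ± 0.27 (SE; limma adjusted p = 0.432, 95% interval -1.10 to 0.17) did not pass, and 1 array decided its size. It was 0.00 without HDL replicate 2 (adjusted p = 0.998) and -0.93 without HDL replicate 1 (adjusted p = 0.0176), the ends of the range over all alternatives.

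Lcn2, Hp and Saa3 stayed at the top of the arrays after HDL. Lcn2 had values of 14.06 and 13.81 on the HDL arrays, against 14.42 and 14.28 on the cholesterol arrays. Both HDL arrays were lower, but the change of -0.42 ± 0.15 (SE; limma adjusted p = 0.209, 95% interval -0.77 to -0.06) did not pass. Hp had values of 14.10 and 13.96 on the HDL arrays, against 14.36 and 14.18 on the cholesterol arrays, a change of -0.24 ± 0.14 (SE; limma adjusted p = 0.430, 95% interval -0.58 to 0.09). Saa3 had values of 14.42 and 14.49 on the HDL arrays, against 14.65 and 14.59 on the cholesterol arrays, a change of -0.16 ± 0.09 (SE; limma adjusted p = 0.386, 95% interval -0.37 to 0.04). For all 3 genes the HDL arrays lay below the cholesterol arrays without overlap. The intervals are those of RMA values near the top of the arrays and set no bound on the change in RNA, since nearness to the upper limit of the scanner was not tested. Relative to baseline they were higher in HDL cells by 9.28 ± 0.15, 8.08 ± 0.14 and 7.68 ± 0.09 (SE) for Lcn2, Hp and Saa3, beside 9.70, 8.32 and 7.84 in cholesterol cells, and ranked 1st, 3rd and 4th of all genes in both comparisons. The limit given above for the dim baseline level of Lcn2 applies to its difference here too.

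Cp had values of 11.58 and 11.29 on the HDL arrays, against 11.88 and 11.77 on the cholesterol arrays. The arrays did not overlap, and the change of -0.39 ± 0.14 (SE; limma adjusted p = 0.201, 95% interval -0.72 to -0.07) did not pass. Ptx3 had values of 12.00 and 11.61 on the HDL arrays, against 11.93 and 11.41 on the cholesterol arrays. Here the groups overlapped, with a change of 0.13 ± 0.19 (SE; limma adjusted p = 0.799, 95% interval -0.32 to 0.59). Relative to baseline, HDL cells had Cp higher by 4.27 ± 0.14 (SE) and Ptx3 higher by 3.50 ± 0.19 (SE). Ptx3 and S100a9 were the genes of the set with a value above 0 for HDL minus cholesterol.

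S100a8 had values of 4.58 and 4.73 on the HDL arrays, against 5.47 and 5.16 on the cholesterol arrays. Both HDL arrays lay below both cholesterol arrays, at about the baseline values of 4.84 and 4.65. The change of -0.66 ± 0.13 (SE; limma adjusted p = 0.0549, 95% interval -0.97 to -0.35) was just short of the threshold, and over its alternatives the adjusted p ran from 0.0303, without HDL replicate 2, to 0.543. It was 0.0494 with the arrays shifted to one median. S100a9 had values of 4.43 and 4.09 on the HDL arrays, against 4.26 and 3.99 on the cholesterol arrays. These overlapped, with a change of 0.13 ± 0.20 (SE; limma adjusted p = 0.816, 95% interval -0.35 to 0.61). Orm1 had values of 4.60 and 4.33 on the HDL arrays, against 4.80 and 4.68 on the cholesterol arrays, a change of -0.27 ± 0.15 (SE; limma adjusted p = 0.418, 95% interval -0.63 to 0.09).

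**Figure D3:**
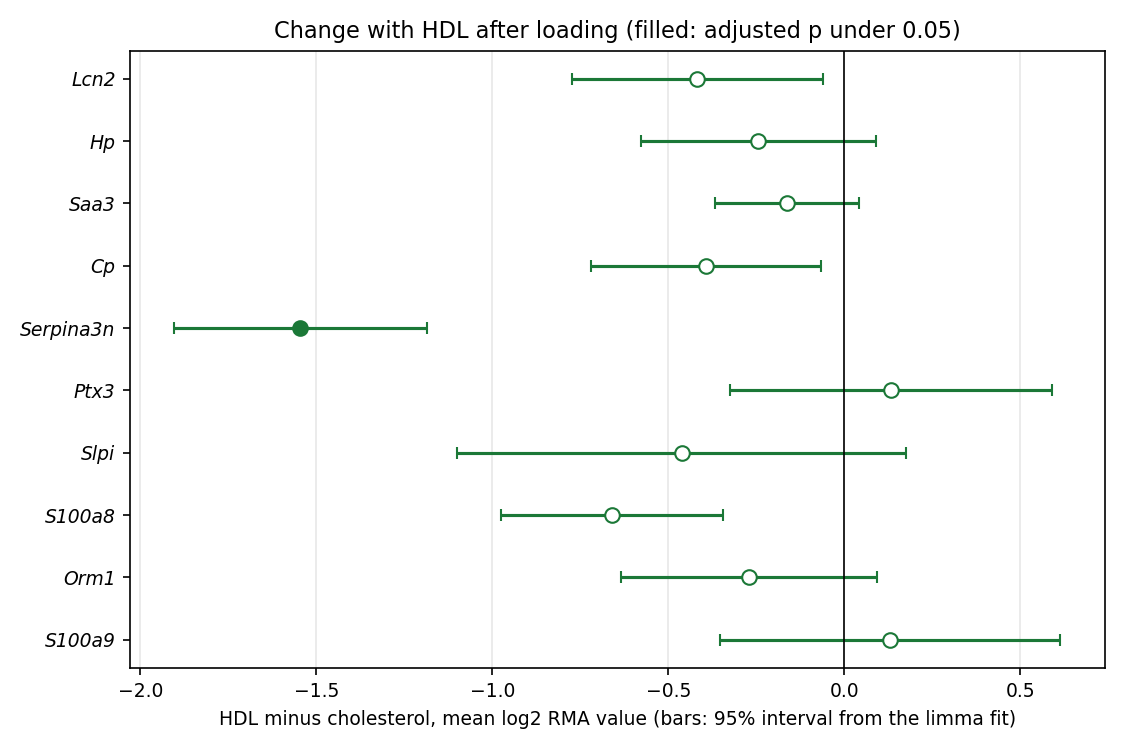
Difference of HDL minus cholesterol cells in mean log2 RMA value (x axis) of the 10 genes, with 95% intervals from the limma fit; a filled point has an adjusted p under 0.05. Serpina3n at -1.55 is filled; the intervals of Lcn2, Cp and S100a8 also lie below 0 but these genes did not pass after adjustment over all genes.

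Set against baseline, 7 of the 10 genes were called higher in HDL cells, where 9.13% of all genes were called higher and 20.0% were called in either direction, and nothing is read from that count. These were Lcn2, Saa3, Hp, Serpina3n, Ptx3, Cp and Slpi. The values of S100a8, Orm1 and S100a9 in HDL cells overlapped those at baseline, with differences of -0.09 ± 0.13, 0.16 ± 0.15 and -0.15 ± 0.20 (SE). Slpi was higher by 1.54 ± 0.27 (SE) in HDL cells, and that call was lost without baseline replicate 1 and also without baseline replicate 2. The comparison with baseline shares its HDL and baseline arrays with the others, so the values are placed side by side and not tested against each other.

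**Figure D4:**
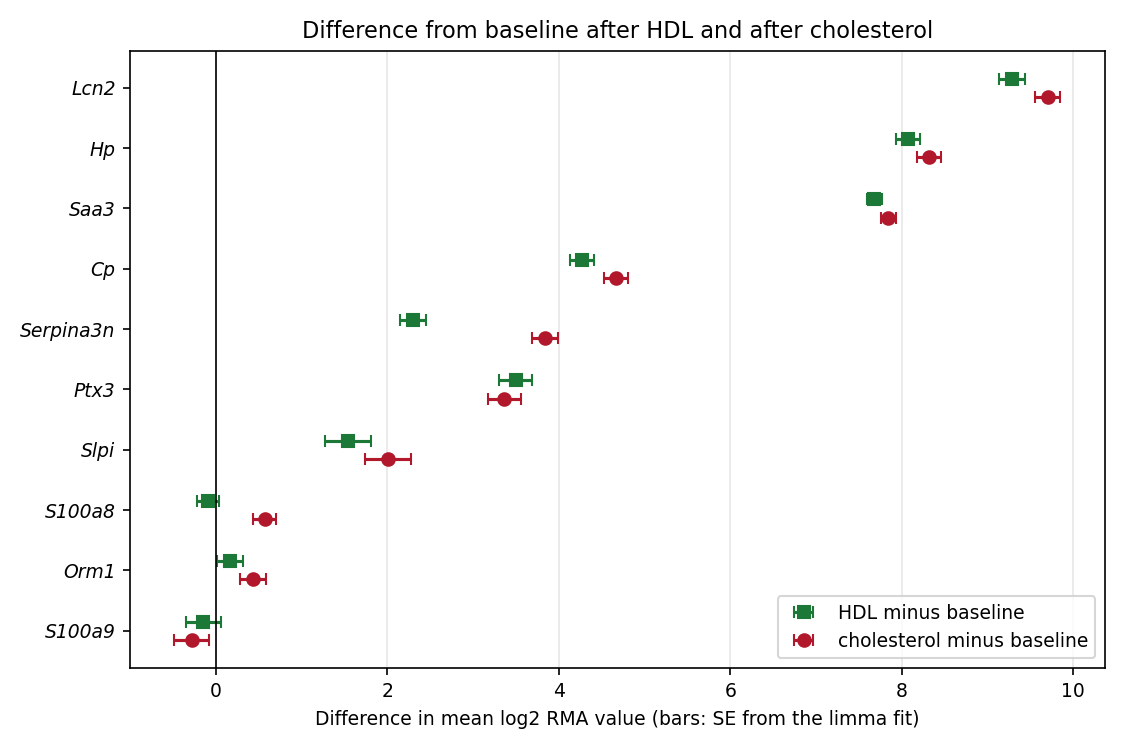
Difference from baseline in mean log2 RMA value (x axis, bars are SE from the limma fit) of HDL cells (squares, above) and cholesterol cells (circles, below) for the 10 genes, ordered by the cholesterol difference. The largest gap between both points is that of Serpina3n, at 2.30 for HDL and 3.84 for cholesterol, and Lcn2, Hp and Saa3 lie above 7 in both.

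The profile of Lcn2 over the 6 arrays, taken relative to baseline, was then compared with that of every other gene by the root mean square difference. The nearest gene was ENSMUSG00000029371_at, with a root mean square difference of 0.83, and the next was Hp, with 1.06. ENSMUSG00000029371_at had values of 12.06 and 12.30 on the HDL arrays, 13.03 and 13.05 on the cholesterol arrays and 4.07 and 4.09 on the baseline arrays. Saa3 ranked 3rd at 1.43, Cp 16th at 4.10, Ptx3 39th at 4.95, Serpina3n 54th at 5.26 and Slpi 176th at 6.30. Orm1, S100a8 and S100a9 ranked 2130th, 2608th and 13214th. The measure mostly follows the size of the difference from baseline on 6 arrays of 3 groups, and it describes these arrays only.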

How the data were processed

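RNA of 6 arrays, 2 per group, had been measured before deposit. Per the labels, the authors used RMA to correct, normalize and combine the probe intensities, with probes assigned to Ensembl release 59 genes by a custom mapping of the University of Michigan. The authors deposited log2 values of 16860 genes, with the baseline and cholesterol arrays in 2 versions, from a run without and a run with the HDL arrays (10 columns in all). The run with all 3 groups is the one reported, and the second version added no replicates. The RMA version is not given in the sources used here. Arrays were grouped by their titles.

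The values were tested as deposited, with no filter, in limma 3.58.1 under R 4.3.3 (lmFit and eBayes, two-sided, 1 fit of the 3 groups), with Benjamini-Hochberg adjustment over all 16860 genes and calls at an adjusted p under 0.05. The fit had 3 residual degrees of freedom, to which the prior added 4.03. The limma fit was tested on simulated data. p-values measure the spread between these arrays, which may be technical, and the number of arrays limits the precision. The one-way test named in the design text, run here on the groups compared, was an alternative; so were the run without HDL, a fit of the compared groups only, a trended robust prior, a replicate block, a filter on dim genes, median centring, a minimum change and each array left out. The 10 genes, the lists and the tests were chosen with earlier results of these data known. All 10 genes are named whatever their values, with the 2 genes nearest to Lcn2. Fixed lists of 143 further symbols (other acute-phase, S100, cytokine, transcription factor, receptor, iron and cell type marker genes) could not be matched to the identifiers and were not used here. Promoter windows and gene positions are RefSeq's, on GRCm38.p6.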

Additional observations from a re-analysis of the deposited data

How the results depend on the processing

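After cholesterol against baseline, 8 of the 10 genes were called; the one-way test per gene called 0 of 10 (7 at an unadjusted p under 0.05) and each array left out gave 7 to 8. The count over all genes, 3960, was 3 in the one-way test (4746 unadjusted), 949 with a minimum change of 1 and 1861 to 4915 with 1 array left out. For HDL against cholesterol, 1 of 10 was called; it was 0 in the one-way test (1 unadjusted, 4 in limma), 2 with arrays shifted to one median and 0 to 2 with 1 array left out. Its count over all genes, 461, was 145 with only those groups, 0 in the one-way test (1577 unadjusted, 3034 in limma), 170 with a minimum change of 1 and 74, without cholesterol replicate 1, to 1656, without HDL replicate 2. For HDL against baseline, 7 of 10 were called; it was 0 in the one-way test (6 unadjusted) and 6 to 7 with 1 array left out, and over all genes 3370, 0 in the one-way test (3391 unadjusted, 5519 in limma), 899 with a minimum change of 1 and 1263 to 4256 with 1 array left out. The one-way test has fewer degrees of freedom and the minimum change is stricter by construction. A fit with 1 array left out also has fewer, since the array that remains in that group adds nothing to the spread. For a comparison of the other groups, it therefore gives the same result as the fit of the compared groups only. The cause of the other shifts was not tested. With 1 array left out, 6 differences that were not called crossed 0: HDL minus cholesterol ran from -0.13 to 0.39 for Ptx3, -0.039 to 0.30 for S100a9 and -0.93 to 0.0011 for Slpi, and HDL minus baseline from -0.19 to 0.0066 for S100a8, -0.030 to 0.36 for Orm1 and -0.42 to 0.13 for S100a9. With the replicate number as a block, 9, 1 and 7 genes of the set were called for cholesterol against baseline, HDL against cholesterol and HDL against baseline, Orm1 being the added one, and 3788, 392 and 3285 over all genes. Same-numbered arrays deviated together by correlations of 0.016, 0.133 and 0.00525 for these pairs of groups. Each group gives only 1 replicate difference, so these correlations cannot decide whether same-numbered arrays share a culture, isolate or day. The dim-gene filter left out Orm1, S100a8 and S100a9, which have no value there.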
